A study of Rattus norvegicus with 20 samples.

Results

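Liver chromatin of rats on the carbohydrate control diet was compared between 6 h and 1 h after partial hepatectomy, with an antibody to the NF-kB subunit p65. The arrays were chosen by their labels alone: the 4 arrays titled carbohydrate, 6 h and the 3 titled carbohydrate, 1 h, which make 7 of the 20 arrays of the series. Of these 7, 5 have array identifiers of 1 array run: 1 h replicates 2 and 3, and 6 h replicates 2, 3 and 4. Their times were also compared within that run. The fit of the run held its arrays of both diets, so the spread behind its p-values includes arrays of the ethanol diet.

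Both groups were wild-type male Sprague Dawley rats, 8 to 10 weeks old, pair-fed a liquid diet for 5 weeks in which carbohydrate took the place of ethanol. All animals of both groups had 70% of the liver removed, and the tissue was the remnant right median, right lateral and caudate lobes, taken 1 h or 6 h after surgery. The comparison diet had 36% of its calories from ethanol, with 3 arrays at 1 h and 4 at 6 h. No sham-operated animal entered the comparison. The titles and descriptions give the times used here, while the source field repeats a single 0 h entry on every sample. The design text speaks of 3 biological replicates per time, and the titles give 4 at 6 h. The p-values therefore measure the spread between arrays, which each linear fit pools over all its groups.

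NF-kB is a family of dimeric transcription factors, and p65, encoded by Rela, is the subunit that carries most of its activating capacity. In resting cells the dimers are held in the cytoplasm by inhibitors such as the product of Nfkbia, which is itself a target gene, and cytokines such as tumour necrosis factor release them. After partial hepatectomy the remnant liver passes through a priming phase in the first hours, when immediate early genes such as Egr1 and Jun are induced and NF-kB and STAT3 become active, before hepatocytes enter the cell cycle. The material here was whole liver, so a lower signal from fewer cells with binding and from less binding per cell cannot be told apart. Chromatin immunoprecipitation measures no RNA, so the tissue could not be checked against its marker transcripts.

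Each array held 713735 probes tiled across promoters, which formed 14723 tiled regions of a median 5274 bp and 50 probes. The deposited value of a probe is a log2 ratio of 2 dyes. The labels give Cy5 to the p65 precipitate and Cy3 to input, while another label text speaks of control IgG, so what the reference channel held is not settled. Nearly all peaks that the authors listed, 99.97% to 100% on the 7 arrays, lie where the deposited ratio is below 0. The values were therefore multiplied by -1, so that a higher value is likely a higher p65 enrichment, and centred on each array's median. The promoter signal below is the mean of these values over the window of at most 500 bp, with at least 4 probes, where the mean over all 20 arrays was highest. The windows of 14540 promoters were tested, 13303 of them with a gene name, and a name with a slash is a region that several genes share. A difference is the 6 h mean minus the 1 h mean on this log2 scale.

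Across promoter windows, the correlation of the arrays' signals was 0.479 to 0.798 for the 9 pairs of arrays of the same time and -0.312 to 0.233 for the 12 pairs of different times. Across all probes the ranges overlapped, at 0.419 to 0.766 and -0.019 to 0.552. All 3 of the 1 h arrays carried the same slide position code in their identifiers, and none of the 6 h arrays carried it. Within the carbohydrate arrays, slide position and time therefore cannot be told apart. The ethanol arrays mix the codes, and a fit with the position code as a term over the 15 arrays that carry one was run for every promoter. Of the 72 called promoters named here, 30 were not called in that fit, and its adjusted p (limma) is given for them below as the p with position. The median standard error of a difference was 0.21 in that fit, against 0.13 in the fit of all arrays. A lost call there does not by itself mean a smaller difference.

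The promoter signal at 6 h was higher than at 1 h at 2476 promoters, which is 17% of those tested. It was lower at 1006, which is 6.92%, by limma with Benjamini-Hochberg adjustment at 0.05. A fit of the 7 arrays alone, with the spread from these only, gave 3024 higher and 1524 lower. The largest differences were taken among called promoters with a gene name whose arrays did not overlap between the times. Lack of overlap at these promoters is therefore part of the choice and no added support. The 12 largest falls so chosen included Egr1, Errfi1, Camkk1, Zfp36l1, Igfbp1 and Crp. The 12 largest rises so chosen included Vom2r6, Rgs18, Ly49s4 and Or52ad1. The median difference over all promoters was 0.07, and the median standard error of a difference was 0.13. The arrays of the 2 times did not overlap at 3498 promoters in the upward direction (24.1% of all tested) and at 1761 in the downward direction (12.1%). Of the promoters called, 2331 of the higher and 935 of the lower were among them. The balance of the directions moved with the measure: means over the whole tiled region gave 2578 higher and 2443 lower, and signal centred within bins of base composition, over the promoters with a sequence, gave 1021 and 1091.

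In the array run that held both times, 2712 promoters were higher at 6 h (18.7% of those tested) and 777 were lower (5.34%). These counts come from the fit of all arrays of the run, those of the ethanol diet included. The 5 carbohydrate arrays fitted alone gave 3372 higher and 1029 lower. Of the calls from all arrays, 2054 higher and 650 lower were also called in the fit of the whole run. The run holds 5 of the same 7 arrays, so this overlap is no independent repeat. With the position code as a term 9.53% of the promoters were higher and 1.76% lower, 1221 and 239 of them calls of the main comparison. Single arrays moved the counts: without 1 h replicate 3 there were 1310 higher, and the lower promoters numbered 373 without 1 h replicate 1 and 570 without 6 h replicate 1. Within the run, leaving out 1 h replicate 3 left 494 higher and 403 lower, leaving out 6 h replicate 4 left 1603 higher, and the lower count was 335 without 1 h replicate 2 and 475 without 6 h replicate 3.

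**Figure D1:**
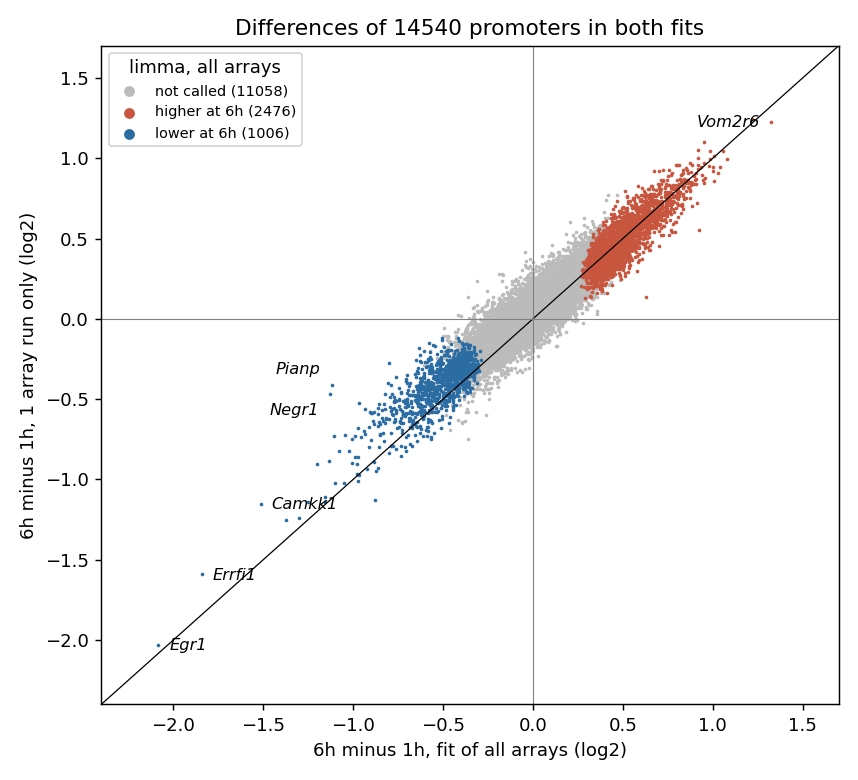
Difference between 6 h and 1 h (log2) for each of the 14540 promoters in the fit of all arrays (horizontal axis) and in the fit of the arrays of 1 run (vertical axis); colours mark promoters called higher or lower by limma in the fit of all arrays, and the diagonal marks equal values. Points lie along the diagonal, with Egr1 at -2.08 and -2.03, while Negr1 and Pianp lie above it, at -1.13 against -0.47 and -1.12 against -0.41.

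The largest fall was at Egr1, which encodes a zinc finger transcription factor induced within minutes of a growth stimulus. The signal of the Egr1 window (chr18:27344654-27344944 in the files' coordinates, whose genome build is not given in the sources used here) was 1.67, 1.60 and 1.31 on the 1 h arrays and -0.50, -0.40, -0.60 and -0.71 on the 6 h arrays. All 1 h arrays were far above all 6 h arrays. The difference was -2.08 ± 0.26 (SE; limma, adjusted p = 7.6e-05) and -2.03 ± 0.15 within the array run (limma, adjusted p = 1.04e-11). The window was centred 881 bp downstream of the listed gene start and made of the last 4 probes of the tiled region, so the signal beyond it was not measured.

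Errfi1, which encodes a feedback inhibitor of the epidermal growth factor receptor, had the next largest fall. Its window, centred 728 bp upstream of the start, gave 2.00, 1.76 and 1.28 at 1 h and -0.43, -0.20, 0.02 and -0.03 at 6 h. The 1 h arrays again stood clear of the 6 h arrays, with a difference of -1.84 ± 0.28 (SE; limma, adjusted p = 0.000183). Zfp36l1, whose product speeds the decay of messenger RNAs with AU-rich elements, gave 1.35, 1.47 and 1.20 at 1 h and -0.39, 0.05, 0.23 and -0.03 at 6 h. No 6 h array of Zfp36l1 came near a 1 h array, and the difference was -1.37 ± 0.24 (SE; limma, adjusted p = 0.000457).

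**Figure D2:**
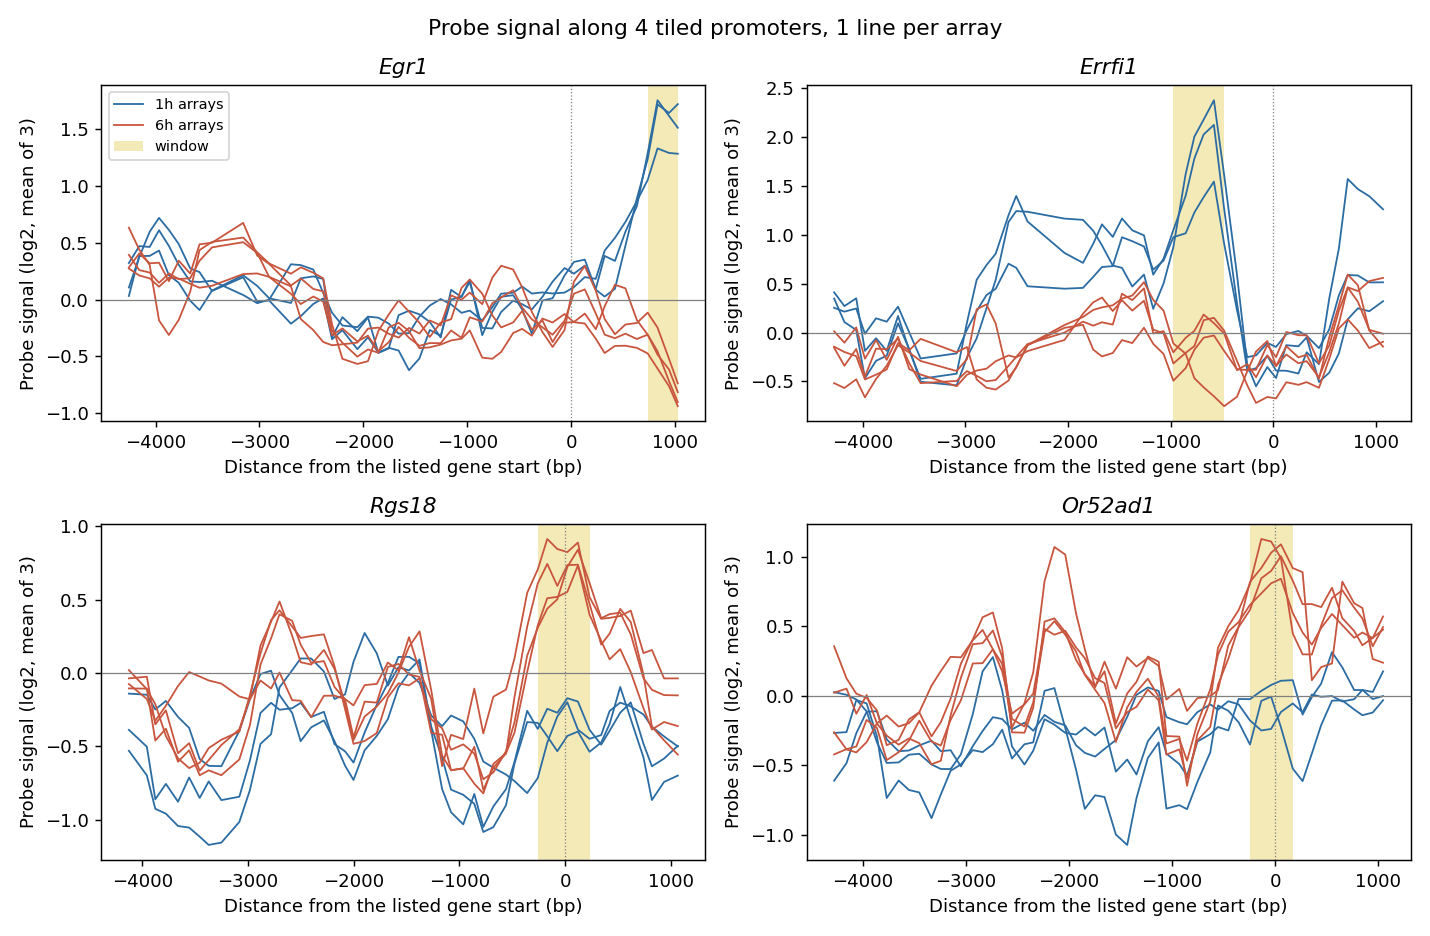
Probe signal (log2, running mean of 3 probes) along the tiled regions of Egr1, Errfi1, Rgs18 and Or52ad1 against the distance from the listed gene start in bp, with 1 line per array (blue, 1 h; red, 6 h) and the window in yellow. The 1 h arrays rise above 1 in the Egr1 and Errfi1 windows where the 6 h arrays stay near or below 0, and at Rgs18 and Or52ad1 the 6 h arrays peak over the start where the 1 h arrays stay near or below 0.

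Igfbp1, a liver gene for a secreted protein that binds insulin-like growth factors, had its window over the promoter itself, centred 93 bp upstream of the start. Its values were 1.38, 1.79 and 0.90 at 1 h and 0.19, 0.29, 0.21 and 0.13 at 6 h, so the groups did not overlap although the 1 h arrays were spread widely. The difference was -1.16 ± 0.22 (SE; limma, adjusted p = 0.00079). Crp, which encodes the acute phase protein C-reactive protein, gave 1.31, 1.68 and 1.01 at 1 h and -0.04, 0.14, 0.47 and 0.36 at 6 h, a difference of -1.10 ± 0.21 (SE; limma, adjusted p = 0.000915). With position as a term the difference of Crp was -0.93 and it was not called (limma, adjusted p = 0.0529). Scarb1, the high-density lipoprotein receptor, gave 1.31, 0.56 and 0.74 at 1 h and -0.55, -0.09, -0.45 and -0.22 at 6 h, with no overlap. Its difference was -1.20 ± 0.23 (SE; limma, adjusted p = 0.000726). The other large falls were at Camkk1, a kinase of calcium signalling (-1.51), Plekhg2 (-1.25), Pax6, a developmental transcription factor (-1.13), and Axin1, a scaffold of the complex that marks beta-catenin for degradation (-1.11).

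The large falls at Negr1 and Pianp rested on 1 h replicate 1. Negr1 read 1.90 on that array and 0.44 and 0.22 on the other 1 h arrays, against -0.71 to 0.05 at 6 h. Without that array its adjusted p by limma was 0.086. Pianp read 1.66 against 0.08 and -0.08, with -1.03 to -0.41 at 6 h, and its adjusted p by limma was 0.207 without that array. In the array run the differences were -0.47 (limma, adjusted p = 0.00949) at Negr1 and -0.41 (limma, adjusted p = 0.118) at Pianp. With position as a term the adjusted p was 0.0636 at Negr1 and 0.108 at Pianp (limma, adjusted). The other 10 of the 12 largest falls remained called by limma whichever of the 7 arrays was left out.

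The largest rise was at Vom2r6, a vomeronasal receptor gene, at -0.31, -0.28 and -0.39 on the 1 h arrays and 1.32, 0.81, 0.90 and 0.96 on the 6 h arrays. Every 6 h array was above every 1 h array by more than 1 log2 unit. Its difference was 1.32 ± 0.18 (SE; limma, adjusted p = 0.000155), and 1.23 ± 0.17 within the run (limma, adjusted p = 1.37e-05). Rgs18, a regulator of G protein signalling in platelets and other blood cells, gave -0.42, -0.22 and -0.43 at 1 h and 0.90, 0.64, 0.74 and 0.62 at 6 h. The groups were well apart, by 1.08 ± 0.17 (SE; limma, adjusted p = 0.000247). Or52ad1, an olfactory receptor gene, gave -0.19, 0.10 and -0.17 at 1 h and 1.00, 0.88, 0.80 and 0.98 at 6 h, without overlap. The difference was 1.00 ± 0.17 (SE; limma, adjusted p = 0.000355).

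The other 9 of the 12 largest rises lay between 0.98 and 1.06. They were the natural killer cell receptor genes Ly49s4 and Ly49s3, the vomeronasal and olfactory receptor genes Vom2r4, Olr943, Or51ac3 and Or5b104b, and Ccdc172, LOC364558 and S100vp. All 12 remained called by limma whichever of the 7 arrays was left out. The receptor genes of these classes lie in families of close copies, and a probe of one may also read another, which was not tested.

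**Figure D3:**
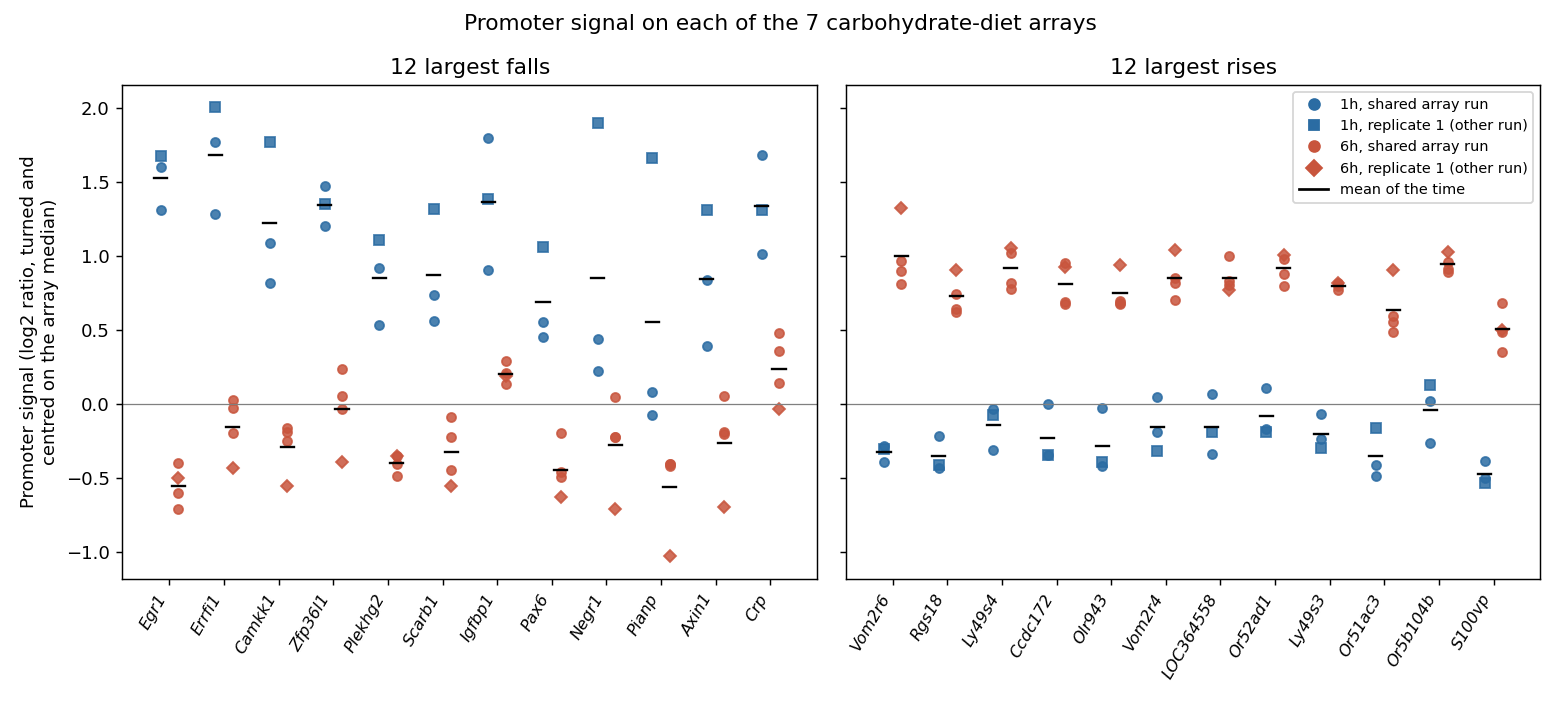
Promoter signal (log2) on each of the 7 arrays for the 12 largest falls (left) and the 12 largest rises (right), with points for arrays (circles, the shared array run; squares and diamonds, the replicate 1 arrays of other runs) and black bars for the mean of each time. The 24 promoters were chosen among called ones whose 1 h and 6 h arrays do not overlap, so the lack of overlap is no result. The wide 1 h spread of Negr1 and Pianp comes from the replicate 1 array.

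Sequences are shown because the differences ran along base composition, as given further below. They are those of the called promoters named here whose window was centred within the 300 bases around the listed start, 6 in all, and over all called promoters with a sequence 79 higher and 38 lower had their window there. These are RefSeq promoter sequences of the GRCr8 build, 5′ to 3′ on the gene's strand, with CG dinucleotides in capitals. The promoters of Igfbp1, Tnf and Keap1 fell and those of Rgs18, Vom2r4 and Or52ad1 rose.
Igfbp1, chr14:86261027-86261326, plus strand: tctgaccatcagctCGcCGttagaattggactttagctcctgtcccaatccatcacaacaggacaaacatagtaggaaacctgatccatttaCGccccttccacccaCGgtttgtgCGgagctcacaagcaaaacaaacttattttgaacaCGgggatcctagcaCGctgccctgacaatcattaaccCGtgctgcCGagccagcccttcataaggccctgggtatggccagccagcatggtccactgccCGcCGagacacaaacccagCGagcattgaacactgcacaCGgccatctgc
Tnf, chr20:3626435-3626734, plus strand: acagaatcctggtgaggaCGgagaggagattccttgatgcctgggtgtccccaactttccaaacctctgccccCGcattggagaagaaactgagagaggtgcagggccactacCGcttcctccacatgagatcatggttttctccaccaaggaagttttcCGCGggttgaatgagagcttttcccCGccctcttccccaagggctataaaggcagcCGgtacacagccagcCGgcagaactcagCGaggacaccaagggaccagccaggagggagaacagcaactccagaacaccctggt
Keap1, chr8:28053993-28054292, minus strand: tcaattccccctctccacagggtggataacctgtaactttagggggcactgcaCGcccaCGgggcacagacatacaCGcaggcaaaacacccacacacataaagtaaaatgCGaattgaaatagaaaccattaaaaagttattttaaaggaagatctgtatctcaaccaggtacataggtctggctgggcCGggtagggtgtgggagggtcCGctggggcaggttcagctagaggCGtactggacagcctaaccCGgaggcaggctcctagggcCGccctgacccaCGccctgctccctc
Rgs18, chr13:59066293-59066592, minus strand: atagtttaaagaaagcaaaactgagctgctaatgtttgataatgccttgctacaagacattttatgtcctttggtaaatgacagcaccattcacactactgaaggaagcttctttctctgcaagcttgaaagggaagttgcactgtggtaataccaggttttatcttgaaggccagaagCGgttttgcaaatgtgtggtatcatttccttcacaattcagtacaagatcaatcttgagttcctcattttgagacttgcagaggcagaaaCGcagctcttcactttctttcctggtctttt
Vom2r4, chr1:2889517-2889816, minus strand: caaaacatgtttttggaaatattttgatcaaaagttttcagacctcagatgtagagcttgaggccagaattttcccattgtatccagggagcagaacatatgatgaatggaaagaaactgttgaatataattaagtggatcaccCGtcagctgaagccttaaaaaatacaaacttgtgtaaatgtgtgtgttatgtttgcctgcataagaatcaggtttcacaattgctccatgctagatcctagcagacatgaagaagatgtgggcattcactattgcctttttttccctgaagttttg
Or52ad1, chr1:167146358-167146657, minus strand: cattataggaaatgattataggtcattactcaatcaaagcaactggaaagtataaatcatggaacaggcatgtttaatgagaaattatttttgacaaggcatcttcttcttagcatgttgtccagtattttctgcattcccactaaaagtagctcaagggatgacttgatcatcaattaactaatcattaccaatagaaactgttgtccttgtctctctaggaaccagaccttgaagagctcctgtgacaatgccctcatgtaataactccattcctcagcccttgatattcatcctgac
The fallen promoters hold 13, 9 and 10 CG dinucleotides and 54.0%, 56.7% and 54.7% G or C. Those that rose hold 2, 1 and 0 CG dinucleotides and 39.7%, 37.3% and 37.3% G or C. The medians over all promoters with a sequence were 16 CG dinucleotides and 57.7% G or C, so these fallen promoters lie under them too. Over those called lower the medians were 19.5 and 60.7%, and over those called higher 3 and 44.3%. The kB consensus motif, searched on both strands, is in 8.5% of all 10837 named promoters with such a sequence and in 5.4% of the 1877 called higher. It is in 11.6% of the 730 called lower that have a sequence. These are 77.8% of the named lower promoters, under the coverage at which a check was accepted further below. With all promoters in classes by their share of G and C, 2.9% of the lowest class and 14.1% of the highest held the motif. Where the window was centred within the 300 bases searched, the motif was in 0 of 38 called lower, 2 of 79 called higher and 23 of all 383. For the other promoters the window was centred outside the bases searched. Whether the shares of the called promoters differ beyond base composition was not tested.

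Genes of the NF-kB pathway itself moved in both directions and in small number. Of 21 promoters of subunits, inhibitors and signalling components, Nfkbia and Cyld were higher at 6 h, and Tab1 and Bcl3 were lower, while 17% and 6.92% of all promoters tested were called in those directions. With position as a term 1 was higher and 1 lower. The list's median difference was 0.001 and that of all promoters 0.07. Nfkbia, the gene of the main cytoplasmic inhibitor, gave -0.22, 0.24 and 0.04 at 1 h and 0.34, 0.61, 0.52 and 0.61 at 6 h in a window upstream of the start. Every 6 h array was above every 1 h array, by a small margin, with a difference of 0.50 ± 0.18 (SE; limma, adjusted p = 0.0436). Over the mean of its whole tiled region Nfkbia differed by 0.008. With array run as a term it was not called (limma, adjusted p = 0.117). Cyld, a deubiquitinase that restrains the pathway, differed by 0.42 ± 0.14 (SE; limma, adjusted p = 0.0322). Tab1, an adaptor of the kinase TAK1, differed by -0.76 ± 0.20 (SE; limma, adjusted p = 0.00711), and Bcl3, a nuclear partner of NF-kB, by -0.35 ± 0.13 (SE; limma, adjusted p = 0.0422).

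The calls of Nfkbia, Cyld and Bcl3 did not survive the removal of single arrays. By limma the adjusted p rose to as much as 0.214 for Nfkbia, with the call lost on leaving out 1 h replicate 1 or 3 or 6 h replicate 2, 3 or 4. For Cyld it rose to 0.143, lost on leaving out 1 h replicate 1 or 3 or 6 h replicate 3 or 4, and for Bcl3 to 0.208, lost for every array other than 1 h replicate 2. The p with position was 0.0548 at Cyld and 0.303 at Bcl3 (limma, adjusted). Tab1 remained called in all 7 cases. The subunit genes Rela (-0.12 ± 0.13, SE) and Nfkb2 (0.10 ± 0.13, SE) were not called, nor was Nfkbiz (0.10 ± 0.11, SE), an inhibitor-like nuclear cofactor, with adjusted p by limma of 0.523, 0.595 and 0.538.

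Among 37 promoters of known NF-kB target genes, 3 were higher at 6 h and 5 lower, against 17% and 6.92% of all promoters, and the list's median difference was 0.003. The array run alone gave 6 higher and 4 lower, and with position as a term 2 were higher and 1 was lower. Sod2, the mitochondrial superoxide dismutase, gave 0.33, 0.50 and 0.10 at 1 h and 0.91, 0.83, 0.94 and 1.07 at 6 h. All 6 h arrays were above all 1 h arrays, by 0.62 ± 0.15 (SE; limma, adjusted p = 0.00387). The other 2 that rose, named after their values were seen, were the chemokine genes Ccl20 (0.41, limma adjusted p = 0.0179) and Cxcl2 (0.41, limma adjusted p = 0.0282). Their calls were lost with single arrays left out, at adjusted p of up to 0.116 (without 1 h replicate 3 or 6 h replicate 4) and 0.208 (without 1 h replicate 1 or 6 h replicate 1 or 4). The p with position was 0.121 and 0.14 (limma, adjusted).

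The region shared by Lta and Tnf, the genes of lymphotoxin alpha and tumour necrosis factor, gave 0.63, 0.50 and 0.53 at 1 h and 0.03, 0.01, -0.12 and 0.19 at 6 h. The 1 h arrays lay close together and above the 6 h arrays, with a difference of -0.52 ± 0.13 (SE; limma, adjusted p = 0.00442). With position as a term the region was not called, at -0.46 (limma, adjusted p = 0.129). Gadd45b, a stress-response gene, fell by 0.67 (limma, adjusted p = 0.00298), and Ltb, the gene of lymphotoxin beta, fell by 0.51 (limma, adjusted p = 0.0247). Ltb was not called without 1 h replicate 1 or without 6 h replicate 1 (limma, adjusted p of up to 0.195). The remaining falls, named after their values were seen, were at Nos2, the inducible nitric oxide synthase (-0.42), and the chemokine gene Ccl5 (-0.39), whose calls were lost by limma without 1 h replicate 1 or 2 or 6 h replicate 3, and for Ccl5 also without 1 h replicate 3 or 6 h replicate 1 or 2. The p with position was 0.176 at Ltb, 0.388 at Nos2 and 0.108 at Ccl5 (limma, adjusted).

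The inflammatory genes Il6, Ccl2, Cxcl1, Vcam1, Sele and Irf1 and the survival genes Bcl2l1 and Birc3 were not called, with differences from -0.41 at Bcl2l1 to 0.28 at Ccl2. The smallest adjusted p among them by limma was 0.0616, at Bcl2l1. Within the array run Bcl2l1 (-0.49), Vcam1 (0.35) and Birc3 (0.34) were called by limma, with adjusted p of 0.0186, 0.0301 and 0.0479.

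Immediate early genes are those that cells switch on without new protein synthesis. Of 43 promoters, 18 were lower at 6 h and 1 was higher, against 6.92% and 17% of all promoters, and the median difference was -0.31. The array run alone gave 19 lower and 1 higher, and with the position code as a term 10 and 1. Of the transcription factor genes 9 of 24 promoters were lower, and of the feedback and other genes 9 of 19. Jun, a subunit of the AP-1 factor, gave 0.90, 0.76 and 0.52 at 1 h and -0.22, -0.19, -0.24 and -0.36 at 6 h, with all 6 h arrays below 0 and all 1 h arrays above. Its difference was -0.98 ± 0.15 (SE; limma, adjusted p = 0.000186). The single promoter that rose, named after its value was seen, was that of Egr3 (0.61 ± 0.15, SE; limma, adjusted p = 0.00523). Over the mean of its whole tiled region Egr3 differed by -0.01.

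Other members of this class did not pass the test: Fos differed by -0.37 and Junb by -0.48 (limma, adjusted p = 0.0665 and 0.0877), and Myc and Atf3 by 0.02 and 0.21 (limma, adjusted p = 0.937 and 0.282). Junb was called within the array run, at -0.60 (limma, adjusted p = 0.0146). Ahr (0.24), Rin1 (-0.14) and Rybp (0.20), genes examined whatever their result, were not called by limma (adjusted p = 0.217, 0.633 and 0.411).

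Cytokine signalling genes had 2 promoters higher and 5 lower of 30, against 17% and 6.92% of all promoters. Socs3, a feedback inhibitor of JAK-STAT signalling, gave 0.39, 0.69 and 0.42 at 1 h and -0.29, -0.26, -0.18 and -0.08 at 6 h. The groups lay on opposite sides of 0, with a difference of -0.71 ± 0.14 (SE; limma, adjusted p = 0.00118). The region shared by Apof and Stat2 gave 0.82, 1.22 and 0.89 at 1 h and -0.11, -0.02, 0.09 and 0.07 at 6 h, a difference of -0.97 ± 0.18 (SE; limma, adjusted p = 0.000676). Tnfrsf1a, the main receptor of tumour necrosis factor, fell by 0.86 (limma, adjusted p = 0.00812), but not without 1 h replicate 1, when the adjusted p was 0.0684, nor with position as a term (limma, adjusted p = 0.0977). The region of Dapk3, Eef2 and Pias4 fell by 1.02. Stat6 (-0.56) also fell, and Il10rb (0.47) was among the rises, both named after their values were seen. Il10rb was not called by limma without 1 h replicate 1.

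Acute phase and plasma protein genes, which hepatocytes express at high level, had 8 of 25 promoters lower and 1 higher, against 6.92% and 17% of all promoters, with a median difference of -0.26. Within the array run 10 fell and 2 rose, and with the position code as a term 0 fell and 1 rose. The region of Mt1 and Mt2A, the metallothionein genes, gave 0.80, 1.90 and 1.19 at 1 h and 0.41, 0.72, 0.31 and 0.24 at 6 h. The lowest 1 h array was close to the highest 6 h array, and the difference was -0.88 ± 0.22 (SE; limma, adjusted p = 0.00526). Alb, the serum albumin gene, gave 0.72, 1.44 and 0.55 at 1 h and 0.17, 0.16, 0.31 and 0.34 at 6 h, a difference of -0.66 ± 0.17 (SE; limma, adjusted p = 0.00772). Both calls rested in part on 1 h replicate 2, without which the adjusted p by limma was 0.0582 at Mt1/Mt2A and 0.0928 at Alb. The p with position was 0.233 and 0.364 (limma, adjusted). The one rise was at the region of Itih1 and Nek4 (0.64 ± 0.15, SE; limma, adjusted p = 0.00297), which over the mean of its tiled region differed by -0.11.

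Genes of glucose and amino acid metabolism had 10 of 33 promoters lower and 1 higher, against 6.92% and 17% of all promoters, and a median difference of -0.24. Arg1, the urea cycle arginase, gave 0.70, 1.19 and 0.71 at 1 h and 0.25, 0.10, 0.11 and 0.08 at 6 h. Its groups did not overlap, and the difference was -0.73 ± 0.17 (SE; limma, adjusted p = 0.00296). Tdo2, which degrades tryptophan, fell by 0.71, Cbs, which makes cystathionine, by 0.68, and Hpd, of tyrosine breakdown, by 0.63. Hpd was not called without 1 h replicate 2 (limma, adjusted p = 0.0509). The promoter that rose was that of Cps1, the first enzyme of the urea cycle (0.38; limma, adjusted p = 0.025), lost without 1 h replicate 1 or 3 or 6 h replicate 1 or 4. Within the run 11 were lower and 0 higher, and with the position code 2 and 0. In the fit with position the p was 0.0972 at Arg1, 0.184 at Tdo2, 0.215 at Hpd and 0.14 at Cps1 (limma, adjusted).

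Lipid genes had 7 of 37 promoters lower and 1 higher, against 6.92% and 17% of all promoters, 8 and 3 in the array run, and 3 and 2 with position as a term. Elovl6, a fatty acid elongase, fell by 0.86, while Abcb11, the bile salt export pump, rose by 0.66 (0.66 ± 0.15, SE; limma, adjusted p = 0.00328). Over the mean of its tiled region Abcb11 differed by -0.02. Of 25 promoters of liver transcription factors 6 were lower and 0 higher by limma, among them Hhex (-0.65), Atf4 (-0.63) and Gata6 (-0.58). The array run alone gave 3 lower and 0 higher, and with position as a term none was called in either direction (limma, adjusted p = 0.206, 0.27 and 0.0534 at these 3). These 3 calls rested on single arrays, Hhex on 1 h replicate 1 and 6 h replicates 1, 3 and 4, Atf4 on 1 h replicate 2 and Gata6 on 1 h replicate 1, with adjusted p by limma of up to 0.294, 0.0919 and 0.109 without them. In the unadjusted test of all promoters, 5385 of 14540 had p under 0.05.

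Genes of alcohol and xenobiotic metabolism had 7 promoters lower and 3 higher of 33, against 6.92% and 17% of all promoters, and 2 and 2 with position as a term. Cyp2d1, a cytochrome P450, gave 0.80, 0.70 and 0.79 at 1 h and -0.14, 0.04, 0.16 and 0.01 at 6 h, far apart, with a difference of -0.74 ± 0.18 (SE; limma, adjusted p = 0.00442). Mgst1, a microsomal glutathione transferase, fell by 0.72, and Keap1, the sensor of oxidative stress, by 0.56. Mgst1 was not called without 1 h replicate 1, and Keap1 without 1 h replicate 1 or any 6 h array (limma, adjusted p of up to 0.0593 and 0.283). Ugt2b1, a glucuronosyltransferase, rose by 0.58 (0.58 ± 0.14, SE; limma, adjusted p = 0.00348). Gsta1 (0.41) and Gclm (0.29), of glutathione conjugation and synthesis and named after their values were seen, also rose. The call of Gclm was lost with any array left out, and that of Gsta1 without 1 h replicate 1 or 6 h replicate 3. The p with position was 0.0535 at Keap1, 0.334 at Gclm and 0.206 at Gsta1 (limma, adjusted).

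Growth factor signalling genes had 7 promoters lower, Errfi1 and Axin1 first among them, and 2 higher of 38, against 6.92% and 17% of all promoters. The array run alone gave 5 lower and 5 higher, and position as a term 4 and 4. Met, the receptor of hepatocyte growth factor, gave -0.21, 0.15 and -0.01 at 1 h and 0.43, 0.90, 0.78 and 0.57 at 6 h. The 6 h arrays were all higher, by 0.69 ± 0.13 (SE; limma, adjusted p = 0.000785). The other rise, named after its value was seen, was at Egfr, the epidermal growth factor receptor (0.56 ± 0.13, SE; limma, adjusted p = 0.00325). Of 77 ribosomal protein promoters 3.9% were higher and 5.2% lower, and of 73 of the respiratory chain and ATP synthase 5.5% and 6.8%, both under the shares of all promoters.

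Sensory receptor genes, whose known site of expression is the sensory epithelium and not the liver, made up many of the promoters that rose. Of 1164 promoters of olfactory receptors, 671 were higher at 6 h (57.6%, against 17% of all promoters) and 1 was lower, that of Or13p9 (-0.54), named after its value was seen, called in 2 of the 7 removals of an array and not with position as a term (limma, adjusted p = 0.453). The median difference of the list was 0.39, and 1081 of its promoters were above 0. The list's median signal was 0.20, 0.16 and -0.07 on the 1 h arrays and 0.48, 0.43, 0.49 and 0.55 on the 6 h arrays, without overlap. In the array run 756 were higher and 0 lower, and with the position code 362 and 0. Of 133 vomeronasal and taste receptor promoters 102 were higher and 0 lower, with a median difference of 0.52. These promoters are many copies of a few families on the same arrays, and not independent observations.

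Markers of liver cell types were given as counts, since their part in these differences was not tested. Of 11 hepatocyte marker promoters Cps1 was higher and Alb, Ahsg (-0.45) and Tf (-0.38), genes of plasma proteins, were lower. Of 15 promoters of lymphocyte and neutrophil markers Cd8a (0.52), Gzmb (0.43), Ncr1 (0.38) and S100a8 (0.37) were higher and 0 lower, against 17% and 6.92% of all promoters. Of 11 stellate cell marker promoters 36.4% were higher and 9.1% lower, of 7 cholangiocyte ones 28.6% and 0, of 7 Kupffer cell and macrophage ones 14.3% and 14.3%, and of 6 sinusoidal endothelial ones 0 and 16.7%. With position as a term 1 stellate and 1 lymphocyte promoter were higher and no other promoter of these lists was called. All the marker calls named here, Alb and Cps1 as above, were lost by limma with single arrays left out. For the others those arrays were 1 h replicate 2 and 6 h replicates 1, 3 and 4 for Ahsg, and every array but 1 h replicate 3 and 6 h replicate 3 for Tf. They were 1 h replicate 3 for Cd8a and Ncr1, 1 h replicate 3 and 6 h replicates 3 and 4 for Gzmb, and 1 h replicate 1 and 6 h replicate 4 for S100a8, with adjusted p of up to 0.369 at Ahsg. In the fit with position the p was 0.54 at Ahsg, 0.517 at Tf, 0.0706 at Gzmb, 0.0562 at Ncr1 and 0.0723 at S100a8 (limma, adjusted).

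**Figure D4:**
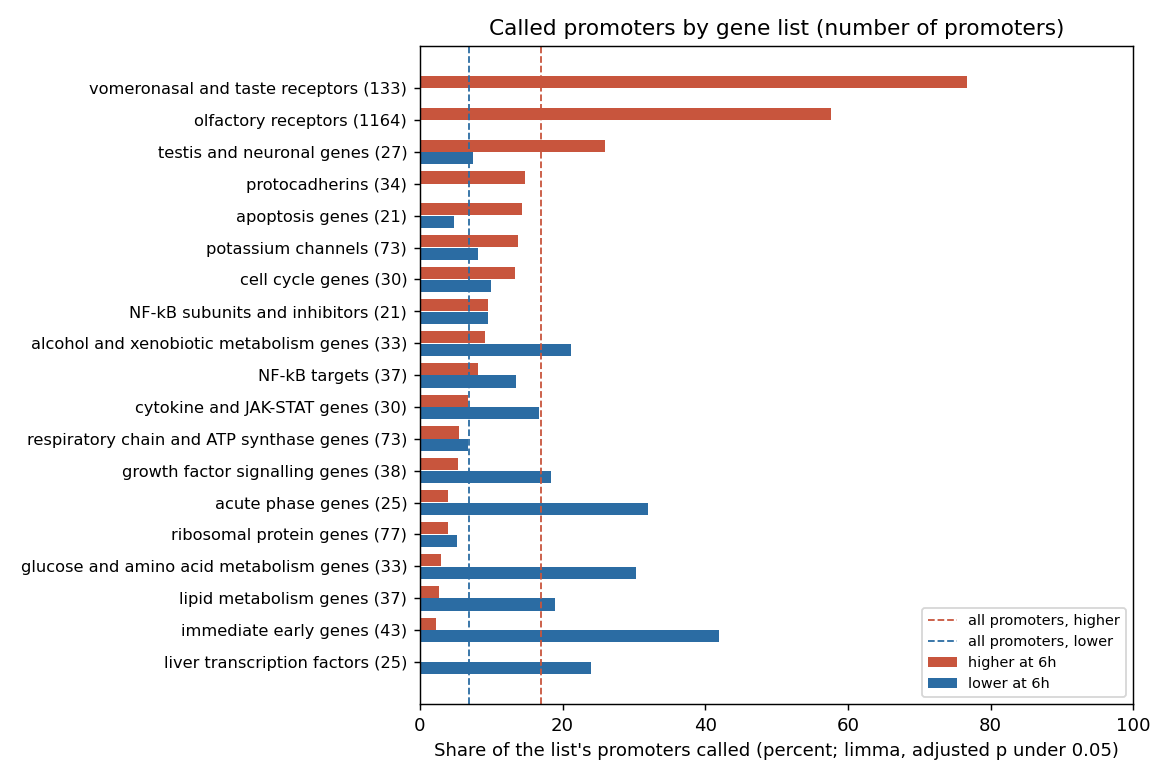
Percent of each list's promoters called higher (red) or lower (blue) at 6 h than at 1 h by limma, for lists of at least 20 promoters, with their number in parentheses; dashed lines mark the 17% and 6.92% of all promoters. The receptor lists reach 57.6% and 76.7% higher, and the immediate early, acute phase and glucose and amino acid lists reach 30.3% to 41.9% lower.

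The class of promoters poorest in G and C had a higher median signal on every 6 h array than on any 1 h array. Among the 10837 promoters with a RefSeq sequence, 81.5% of those named, the 2207 with the lowest share of G and C (17.3% to 46.3%) had a median difference of 0.32, with 46.6% of its promoters higher and 1.1% lower. Over the other promoters, in 4 further classes of about that size, the median difference lay between -0.001 and 0.05, with 8.2% to 12.9% higher and 6.5% to 9.2% lower. In the lowest class the median signal was 0.17, 0.17 and -0.02 on the 1 h arrays and 0.40, 0.37, 0.43 and 0.48 on the 6 h arrays, so that every 6 h array was above every 1 h array. Across promoters within an array, which are not independent replicates, the signal correlated with the share of G and C positively on each 1 h array (Pearson's r of 0.18, 0.22 and 0.35) and negatively on each 6 h array (-0.28, -0.14, -0.25 and -0.22). Ethanol-diet arrays showed the same signs, with r from 0.24 to 0.43 at 1 h and from -0.30 to -0.18 at 6 h.

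**Figure D5:**
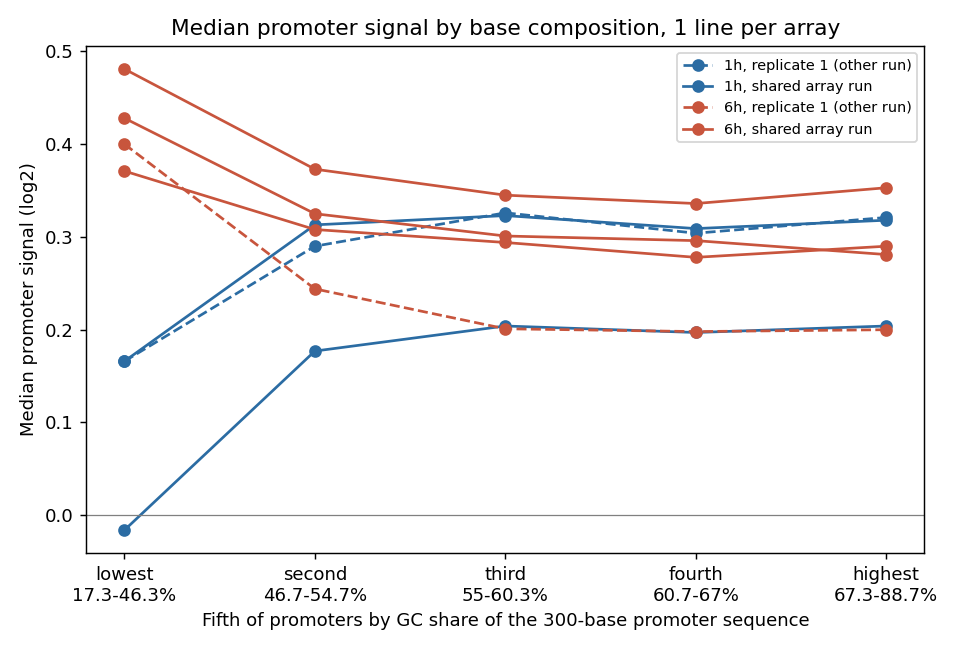
Median promoter signal (log2) in 5 classes of the promoters ordered by the G and C share of their 300-base sequence, 1 line per array (blue, 1 h; red, 6 h; dashed, the replicate 1 arrays of other runs). In the lowest class the 6 h arrays lie at 0.37 to 0.48 and the 1 h arrays at -0.02 to 0.17, and in the other classes the arrays of both times overlap.

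Centring each array's signal within 10 bins of base composition, an alternative chosen after the data were seen, moved the count of rises down and that of falls up. In limma fits of these 10837 promoters alone, 1873 were higher and 731 lower before this step, and 1021 were higher and 1091 lower after it. Of the higher calls 929 remained, and of the lower calls 703 remained. Olfactory receptors went from 576 higher and 1 lower of 988 to 81 higher and 60 lower, and their median difference from 0.39 to 0.04. Vomeronasal and taste receptors went from 94 to 30 higher of 124, with 2 then lower, and their median difference from 0.52 to 0.19. The median share of G and C was 35.3% in the olfactory list and 37.3% in the vomeronasal and taste list. These receptors are themselves part of the bins whose medians were taken off, so a move of their median towards 0 is partly built into the step. Whether their rise goes with base composition or with gene family was not tested. Acute phase genes had 7 lower and 1 higher of 20 before and 8 and 1 after. Of the 55 called promoters named here that have a sequence, 51 remained called by limma, and Ugt2b1, Cxcl2, Cps1 and Gsta1 did not. The immediate early list has a sequence for 79.1% of its promoters, under the 80% at which such a check was accepted, so its counts were not compared in this way.

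The share of rises varied with where the window lay. Of the 2462 named promoters with a window centred within 500 bp of the listed start, 28.1% were higher and 7.8% lower. Of the 3981 with a window 500 to 2000 bp upstream, 11.7% were higher and 7.5% lower. Of the 3822 with a window more than 2000 bp upstream, 16.2% were higher and 4.7% lower. Of the 3037 with a window 500 bp or more downstream, 18.0% were higher and 8.8% lower.

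The peak lists of the authors, called array by array, gave the same comparison without the windows. The 1 h arrays had 4881, 5358 and 6052 peaks and the 6 h arrays 3722, 6704, 6121 and 6591. The 6 h arrays held both the lowest and the highest number, and the mean difference of 354.2 peaks did not pass an exact permutation test (two-sided p = 0.629; 35 arrangements of the arrays allow no p below 0.0571). In the array run the 6 h arrays had 767 more peaks on average, and each had more than either 1 h array (exact permutation test, two-sided p = 0.2, the smallest that 10 arrangements allow). A gene with a listed peak on at least 2 arrays of a time was counted as bound. This gave 4141 genes at 1 h and 5688 at 6 h, of 14356 genes with a peak on any array of the series. The 6 h group has more arrays, so this rule is more easily met at 6 h. With a 6 h array left out, 4378 to 5211 genes were bound at 6 h. Requiring all arrays of a time, a rule harder to meet at 6 h, gave 1644 genes at 1 h and 1669 at 6 h. Under the rule of at least 2 arrays, both times shared 1742 genes, which is 42.1% of the 1 h genes and 30.6% of the 6 h genes. A further 2648 were bound at 6 h and had no peak on any 1 h array, and 1504 the reverse. The latter count was 765 to 964 when one of the 1 h arrays was left out, whichever it was.

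Genes with a peak on all 3 of the 1 h arrays and on none at 6 h numbered 565. The highest mean peak scores among them, in the authors' own units, were 1.48 at Errfi1, 1.28 at Egr1, 1.27 at Esrp2, a splicing factor of epithelial cells, 1.25 at Zfp36l1 and 1.24 at Igfbp1. The peak at Egr1 scored 1.49, 1.12 and 1.24 on the 3 arrays, and that at Igfbp1 scored 1.22, 1.67 and 0.83, 18 bp upstream of the start. A peak of 1.29, 1.14 and 1.13 was listed for both Hspb6, a small heat shock protein gene, and Proser3, and one of 1.33, 1.09 and 0.78 for both Flot1 and Ier3, an immediate early gene. Next came Amigo3 (1.06), RGD1566239 (1.04) and Lrfn4 (1.03). Olfactory receptors made up 2 of these 565 genes, against 8.27% of all genes listed, and 236 of the 565 had the same pattern in ethanol, on all 3 of its 1 h arrays and none of its 4 at 6 h.

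Genes with a peak on all 4 of the 6 h arrays and on none at 1 h numbered 861, of which 353 were olfactory receptors (41.0%, against 8.27% of all listed) and 39 vomeronasal or taste receptors. The highest mean score was 1.18, at Vom2r65, with 1.35, 1.05, 1.16 and 1.15 on the 4 arrays. Next were Spetex2c (0.95), Or8h7b (0.94), Vom2r12 (0.92), Or8h7 (0.90), Vom2r13 (0.90), Or9k2 (0.90) and Or5b104b (0.90). The scores of a gene such as Or5b104b (1.00, 0.94, 0.80 and 0.86) were alike on all 4 arrays. In ethanol 287 of the 861 had the same pattern.

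In rats on the ethanol diet, 1138 promoters were higher at 6 h than at 1 h (7.83% of those tested) and 2353 lower (16.2%). Both diets shared 804 higher promoters, which is 32.5% of the carbohydrate and 70.7% of the ethanol calls, and 632 lower promoters, which is 62.8% and 26.9%. At 9 promoters the calls were in opposite directions. The diets shared no array, but shared slides and array runs. Egr1 differed by -1.86, Errfi1 by -1.88, Igfbp1 by -1.23 and Crp by -0.97 in ethanol, close to their carbohydrate values, while Rgs18 differed by 0.29, Met by 0.22 and Nfkbia by -0.48.

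A difference between the diets in the change from 1 h to 6 h was called at 0 of 14540 promoters by limma over all arrays, where 2034 had an unadjusted p under 0.05. At Nfkbia the unadjusted p was 0.000642 and the adjusted p by limma 0.203. Over the 11 arrays of the single run, 1487 promoters had a higher and 84 a lower change in carbohydrate than in ethanol. Nfkbia (limma, adjusted p = 0.000734), Rgs18 (0.00291), Cxcl1 (0.0078), Fos (0.00898) and Ahr (0.00193) were among these. Within that run the carbohydrate 1 h arrays carried a slide position code that differed from that of the ethanol 1 h arrays. At 1 h, diet and slide position therefore cannot be told apart there. With position as a term over the 15 arrays that carry a code, the diet difference was called at 0 promoters by limma.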

How the data were processed

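Two-colour promoter arrays of p65 chromatin immunoprecipitation were read from the values table and from a peak list for each array. The deposited log2 ratios per probe were made by the authors before deposit, with a normalization that is not given in the sources used here. The deposited peak lists hold a score and an FDR for each peak as the authors' caller gave them, per the file headers, and no listed FDR was above 0.2. The genome build is not given in the sources used here.

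The ratios were multiplied by -1 and centred on each array's median. Probes less than 1000 bp apart formed a tiled region, and the mean over its best window of 500 bp with at least 4 probes was tested. Of 14678 RefSeq accessions, 13670 were matched to a current symbol. Linear models with moderated variances and a variance trend (limma 3.58.1, R 4.3.3) were fitted to all 20 arrays with 6 group means, or to the 11 arrays of 1 run with 4, with Benjamini-Hochberg adjustment over all promoters at 0.05. The fit was tested on simulated data. Peak numbers were compared by an exact permutation test. Alternatives were other windows, scalings, terms for run, slide and position, array weights, a replicate block and each array left out.

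Named genes were the 12 largest called rises and falls whose arrays did not overlap, at most 4 called members of each list by size, and a fixed set of NF-kB, immediate early and acute phase genes. For peaks they were the genes with the highest mean score. The comparison, members and gene lists were chosen with earlier results of these data known. The arrays have no read depth, and their number limits the precision. Some results within the lists are not reported here.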

Additional observations from a re-analysis of the deposited data

Results flagged for a closer look

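In 4 of the 91 sets of 6 h values tested (named promoters and the peak number), the highest or lowest 6 h array stood apart from the other 3, by a gap whose share of the group's range passed Dixon's critical value, and chance gives about 1 such set in 20. At Olr943 the highest 6 h array had a gap of 0.924 of the range, at Cbs 0.908 and at Elovl6 0.862. At Pianp the lowest 6 h array had a gap of 0.979. The change from 1 h to 6 h differed between the diets by limma within the 11 arrays of 1 array run, where it was higher in carbohydrate at 1487 promoters and lower at 84. Over all 20 arrays that difference was called at 0 promoters by limma. In the run, diet and slide position cannot be told apart at 1 h.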

How the results depend on the processing

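Of the 72 called promoters named here, all kept their direction with any single array left out, and 421 of 504 such calls were kept. With an array left out, 9.01% to 15.7% of promoters were higher and 2.57% to 6.47% lower, and in the array run 3.4% to 17.7% and 2.3% to 3.98%. With the slide position code as a term 9.53% were higher and 1.76% lower, and in the run 11.4% and 1.6%. The lower share was 10.5% over the 7 arrays alone, 4.57% with arrays set to the same spread and 10.7% with array weights. Over the whole tiled region 16.8% were lower, in the run 14.8%, and 45.7% were called in ethanol. Signal centred within bins of base composition, chosen after seeing the data, gave 9.42% higher. The replicate numbers did not pair the arrays (r of -0.123, 0.064 and -0.093 for equal numbers), and a replicate block over the 7 arrays gave 13.1% higher and 7.85% lower. The diet difference was called at 10.8% in the run, at 0 with position as a term over 15 arrays and at 0 with any array left out. The difference in peak number was -85.8 at a listed FDR of at most 0.05 and 47.7 to 1041.7 with an array left out. Genes bound at 6 h and not at 1 h numbered 1446 at that FDR, 861 with all arrays required, 1733 near the start and 2064 to 3188 with an array left out. Those bound at 1 h only numbered 977, 565, 995 in the run and 765 to 1951. With an array left out the difference ranged from -0.017 to 0.246 at Nfkb2, -0.0342 to 0.181 at Nfkbiz and -0.0467 to 0.0931 at Myc, none of them called.

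With the values in their deposited direction, which chooses other windows, 1.71% of promoters were higher and 0.454% lower, and in the run 1.64% and 0.385%. These shares and the differences listed next are on the deposited scale, not multiplied by -1. Higher there is lower on the scale used above, so a changed sign is the same direction as above, read in another window. A kept sign is the opposite direction in that window. Of the 72 called promoters named here, 52 changed sign. The other 20 kept it, Egr1 and Vom2r6 among them, and were not called in this setting. Log2 differences that then changed sign were Rgs18 -0.167, Ccdc172 -0.276, Olr943 -0.131, LOC364558 -0.589, Or52ad1 -0.239, Or51ac3 -0.0359, Or5b104b -0.0035, S100vp -0.334, Errfi1 0.0774, Camkk1 0.0234, Zfp36l1 0.0511, Scarb1 0.123, Igfbp1 0.226, Pax6 0.307, Negr1 0.168, Pianp 0.289, Axin1 0.118, Crp 0.0629, Tab1 0.288, Cyld -0.15, Bcl3 0.574, Gadd45b 0.417, Lta/Tnf 0.91, Ltb 0.00532, Jun 0.194, Socs3 0.119, Tnfrsf1a 0.361, Apof/Stat2 0.0436, Alb 0.259, Itih1/Nek4 -0.19, Arg1 0.28, Hpd 0.611, Elovl6 0.16, Abcb11 -0.27, Cyp2d1 0.148, Ugt2b1 -0.0366, Keap1 0.0622, Hhex 0.0582, Atf4 0.237, Gata6 0.0515, Met -0.368, Nfkb2 -0.00126, Nfkbiz -0.458, Ccl2 -0.00388, Vcam1 -0.00443, Sele -0.0119, Bcl2l1 0.244, Birc3 -0.138, Fos 0.0779, Junb 0.0356, Rin1 0.227, Ahr -0.093, Rybp -0.193, Cxcl2 -0.0727, Ccl5 0.0952, Or13p9 0.189, Stat6 0.492, Cps1 -0.17, Ahsg 0.0465, Tf 0.0432, Cd8a -0.071, Gzmb -0.0971, Ncr1 -0.109 and S100a8 -0.0494. The settings that follow keep the scale used above, so a changed sign there is a changed direction. With at least 6 probes the differences that changed sign were Pianp 0.038, Mgst1 0.00277, Hhex 0.0577 and Cxcl1 -0.0882. Over the tiled region they were Itih1/Nek4 -0.111, Abcb11 -0.022, Rela 0.0391, Nfkb2 -0.032, Il6 -0.0681, Myc -0.132, Atf3 -0.112, Ahr -0.0279, Egr3 -0.0105 and Cd8a -0.00623, and in the 1000 bp window Mgst1 0.0807, Il6 -0.137, Cxcl1 -0.0721 and Ahr -0.246. The position term gave Rin1 0.125, and in the run Rela 0.0803, Rin1 0.213 and Or13p9 0.0596. Further sign changes were Myc -0.00384 with the replicate block, Myc -0.0254 with array weights and Rin1 0.00642 with quantile normalization. The sign changes in the deposited direction come with the scale, and the cause of the shifts in the other settings was not tested. The number of arrays, 3 and 4, limits the precision, and no probe background was given to set a detection limit.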
